A study of Homo sapiens with 6 samples.

Results

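The genes described here encode 10 inhibitors of mitogen-activated protein kinase (MAPK) signaling, namely the dual specificity phosphatases DUSP1, DUSP4, DUSP5, DUSP6 and DUSP10, the Sprouty proteins SPRY1, SPRY2 and SPRY4, and the Spred proteins SPRED1 and SPRED2. They were chosen by gene symbol, with earlier results of these data known. Of the 27754 genes counted in the series, 10 carry these symbols. All 10 passed the filter on low counts. RNA was sequenced from T47D cells, a luminal, estrogen receptor-positive human breast cancer cell line grown as an adherent culture in RPMI medium with serum. Cells in normoxia were kept at 20% O2 (3 libraries), and cells in hypoxia were kept in a chamber at 0.5% O2 for 48 h (3 libraries), with the O2 levels and the time taken from the labels. The study's text names a different O2 level for hypoxia in this experiment, which could not be settled here, and gives the same time for both conditions. The labels name no genetic change in either condition, and the model is a single cell line. The labels number the replicates 1 to 3 but do not say that they are separate cultures. The study's figure caption gives n = 3 and describes its data as independent experiments. Libraries of the same condition differed by more than counting error, with a chi-square per degree of freedom from 6.38 to 72.6. P-values measure the spread between these libraries, and how much of it is technical was not tested.

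In the RAS-ERK cascade, growth factor receptors activate RAS, which starts a relay of kinases through RAF and MEK to ERK. ERK then switches on genes whose products switch the cascade off again. DUSP proteins remove the activating phosphates from threonine and tyrosine of MAPKs, Sprouty proteins block the path from receptors to RAS and RAF, and Spred proteins bring the RAS inhibitor neurofibromin (NF1) to the membrane. Transcripts such as DUSP6, SPRY2 and SPRY4 are commonly read as a gauge of ERK activity, although DUSP10 acts mainly on the stress kinases JNK and p38, and DUSP1 acts on all of these kinases. The comparison asked whether the level of these feedback transcripts differed between cells kept in low and in normal O2.

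Libraries held between 32989104 and 89883409 counts, the deepest being hypoxia replicate 3. A level of 3 counts was 0.0328 counts-per-million (CPM) in the deepest library and 0.0969 CPM in the shallowest, a floor for counting error only. All CPM values are TMM-normalized. Each of 9 genes known to respond to low O2 rose, for example NDRG1, a stress-response gene, from 23.0 ± 2.49 to 476.2 ± 48.1 CPM and VEGFA, the vascular growth factor, from 39.2 ± 6.50 to 803.5 ± 35.8 CPM (SD, n = 3). Luminal markers were abundant in all libraries (summed over 9 genes, 13954 to 18115 CPM in normoxia and 10190 to 13466 CPM in hypoxia), although 4 of them (ESR1, PGR, GATA3 and FOXA1) fell. Immune and endothelial markers summed to 1.37 to 1.67 CPM in normoxia and 6.78 to 8.34 CPM in hypoxia. CD68 was the largest part in every library (1.00 of 1.42 CPM in normoxia replicate 3), and CDH5, VWF and PECAM1 were at most 0.350 CPM. Replicate 3 of both conditions stood apart from replicates 1 and 2. In normoxia, VIM, a mesenchymal intermediate filament gene, was at 0.177, 0.322 and 12.8 CPM in replicates 1, 2 and 3, and in hypoxia it was at 0.864, 0.956 and 10.9 CPM. Of 10 basal or mesenchymal breast markers, 7 were highest in replicate 3 in each condition, though not the same 7. This is beside 40.8% of all tested genes in normoxia and 44.4% in hypoxia. The sum of the 10 was lowest in replicate 3, at 67.0, 84.4 and 66.8 CPM in normoxia and 128, 146 and 124 CPM in hypoxia. CD44, the most abundant of them, was also lowest there (62.4, 78.4 and 42.0 CPM in normoxia, 87.4, 106 and 63.2 CPM in hypoxia). Among the 7 tested, 2 rose. CAV2 had 0 counts in every library except the replicate 3 libraries. Results that turn on replicate 3 are given with and without it, and the part of these markers in any result was not tested.

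Hypoxia was accompanied by higher transcript levels of most of these inhibitors. All rises and falls given here are of transcripts, and neither protein nor ERK phosphorylation was measured in these libraries. Of the 10 genes, 7 rose (DUSP4, DUSP6, DUSP10, SPRY1, SPRY4, SPRED1 and SPRED2), DUSP5 fell, and DUSP1 and SPRY2 gave no call. A call is an adjusted p below 0.05 (edgeR's quasi-likelihood test, with Benjamini-Hochberg adjustment over the 15657 genes tested). Changes are log2-fold changes of hypoxia over normoxia (log2FC), also where a gene is said to rise or fall by a value, with standard errors (SE). Hypoxia changed much of the transcriptome, and the counts must be read against that background. Because the 10 genes were chosen with earlier results of these data known, the shares below are descriptions. They do not test whether these genes stand out. Among all tested genes, 59.5% passed the same test, 30.4% as higher and 29.1% as lower in hypoxia. A fit with a block for replicate number gave these same 7 and 1 calls, beside 71.8% of all tested genes, 36.6% being higher. A rise of at least 1 on the log2 scale was found for 5 of the 10 genes and for 15.2% of all tested genes. The median log2FC of the 10 genes was 1.03, beside 0.028 for all tested genes. In 7 genes all hypoxia libraries were above all normoxia libraries (34.9% of tested genes), and in 1 all were below (32.4%), so that 8 of 10 did not overlap, beside 67.3% of tested genes. Because these are bulk samples, fewer cells expressing a gene and less RNA per cell cannot be told apart.

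**Figure D1:**
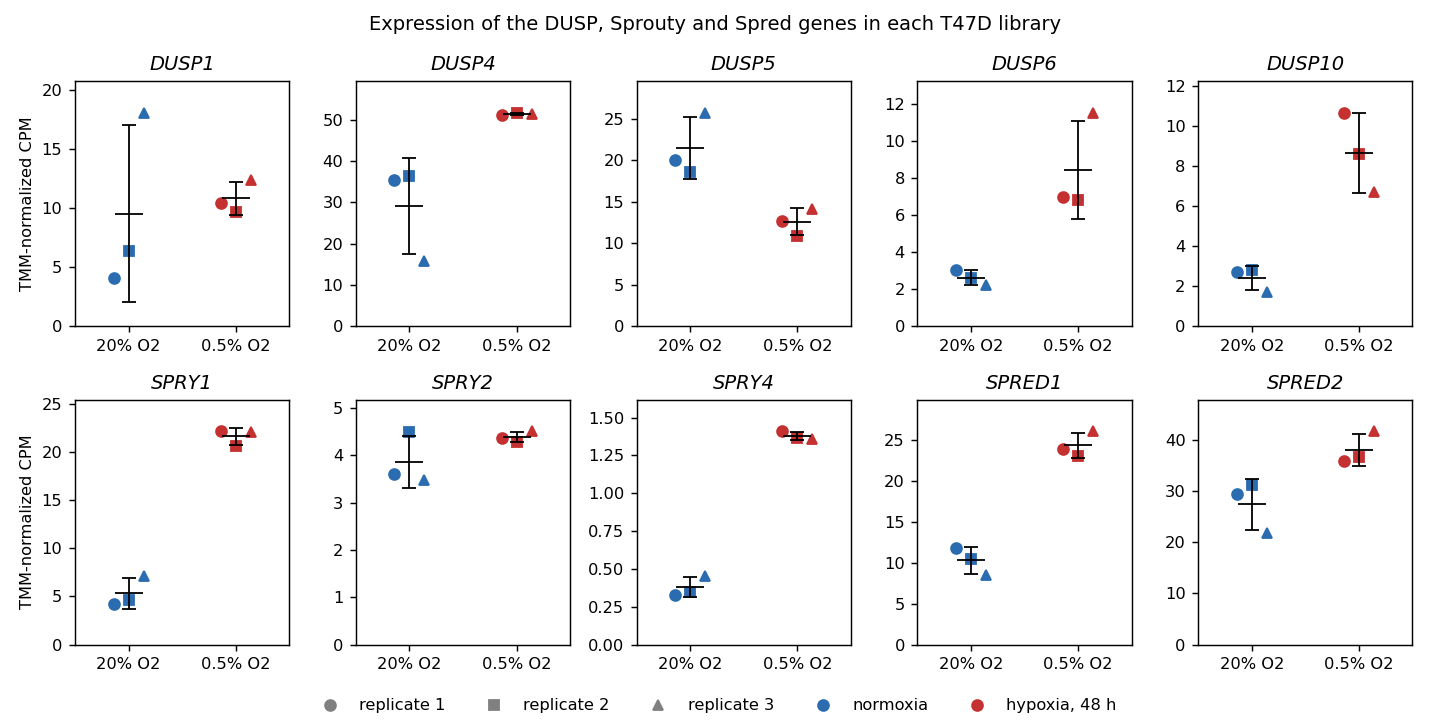
TMM-normalized CPM (y axis, linear and starting at 0 in each panel) of the 10 genes in each library, by condition (x axis, 20% O2 for normoxia and 0.5% O2 for hypoxia), with the mean (horizontal bar) and SD of 3 libraries and a marker shape for each replicate number. The conditions separate in every panel except those of DUSP1 and SPRY2, and the DUSP1 level of normoxia replicate 3 (18.1 CPM) is above all hypoxia libraries.

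The phosphatases DUSP6 and DUSP10 had the largest rises among the 5 DUSP genes chosen. DUSP6 (GRCh37 chromosome 12, 89741602 to 89746636, reverse strand, 3 exon blocks) encodes a cytoplasmic phosphatase selective for ERK. It was at 3.01, 2.58 and 2.20 CPM in normoxia replicates 1, 2 and 3 and at 6.96, 6.80 and 11.5 CPM in hypoxia replicates 1, 2 and 3. Every hypoxia library was above every normoxia library, and hypoxia replicate 3 was the highest. The log2FC was 1.70 (SE 0.25, adjusted p = 8.75e-04 by edgeR), which is 3.25-fold. The rise was smaller without hypoxia replicate 3 (log2FC 1.40, adjusted p = 7.88e-04) and without both libraries of replicate 3 (log2FC 1.30, adjusted p = 4.44e-06). With any library or replicate number left out, the log2FC stayed between 1.30 and 1.94. DUSP10 (chromosome 1, 221874762 to 221915518, reverse strand, 5 exon blocks) was at 2.68, 2.82 and 1.71 CPM in normoxia and at 10.7, 8.61 and 6.69 CPM in hypoxia. Replicate 3 was the lowest library in both conditions, without overlap between them. Its log2FC was 1.83 (SE 0.25, adjusted p = 6.19e-04).

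DUSP4 and DUSP5, which encode inducible nuclear phosphatases that act on ERK, moved in opposite directions. DUSP4 (chromosome 8, 29190579 to 29208267, reverse strand) was at 35.5, 36.4 and 15.8 CPM in normoxia and at 51.2, 51.7 and 51.3 CPM in hypoxia. The hypoxia libraries were almost identical, and the spread came from normoxia replicate 3. The log2FC was 0.81 (SE 0.27, adjusted p = 0.0325). This call did not hold when hypoxia replicate 1, 2 or 3 was left out (adjusted p = 0.0734, 0.0714 and 0.0557), although the log2FC was 0.81 in each case. Nor did it hold without both libraries of replicate 1 or of replicate 2 (log2FC 0.98 and 0.99, adjusted p = 0.0681 and 0.0527). Without normoxia replicate 3 the change was smaller, 0.51, and firmer (adjusted p = 0.00161), and without both libraries of replicate 3 it was 0.52 (adjusted p = 1.13e-05).

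DUSP5 (chromosome 10, 112257625 to 112271302, forward strand, 4 exon blocks) was the only gene of the 10 that was lower in hypoxia. It was at 20.0, 18.6 and 25.7 CPM in normoxia and at 12.7, 10.8 and 14.1 CPM in hypoxia. All hypoxia libraries were below all normoxia libraries, and replicate 3 was the highest in each condition. The log2FC was -0.77 (SE 0.15, adjusted p = 0.00377), and it stayed between -0.88 and -0.62 with any library or replicate number left out.

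For DUSP1, which encodes a nuclear phosphatase made within minutes of many stimuli, no call could be made. Its levels were 4.10, 6.39 and 18.1 CPM in normoxia and 10.4, 9.70 and 12.3 CPM in hypoxia (chromosome 5, 172195093 to 172198203, reverse strand). Normoxia replicate 3 was above every hypoxia library, and normoxia replicates 1 and 2 were below every one. The log2FC was 0.20, with a 95% confidence interval from -0.89 to 1.28 (adjusted p = 0.734). Left without normoxia replicate 3, the gene was higher in hypoxia by 1.04 (adjusted p = 0.00433), and without both libraries of replicate 3 by 0.95 (adjusted p = 0.000162). Without normoxia replicate 1 or 2 the value was -0.18 or -0.043, and without both libraries of replicate 1 it was -0.14. The same-numbered pairs gave 1.33, 0.60 and -0.55. The immediate early gene FOS, chosen for mention after its values were seen, was also highest in normoxia replicate 3 of the normoxia libraries, at 5.88 CPM against 0.734 and 1.32 CPM, although it was at 23.6, 20.8 and 26.9 CPM in hypoxia. The part of this library difference in the DUSP1 result was not tested.

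Among the Sprouty genes, SPRY1 and SPRY4 rose and SPRY2 did not pass the test. SPRY1 (chromosome 4, 124317950 to 124324915, forward strand, 5 exon blocks) was at 4.20, 4.65 and 7.17 CPM in normoxia and at 22.2, 20.7 and 22.1 CPM in hypoxia. The groups were far apart, with the lowest hypoxia library above the highest normoxia library. The log2FC was 2.03 (SE 0.20, adjusted p = 1.63e-04), which is 4.08-fold and the largest of the 10 genes. SPRY4 (chromosome 5, 141689992 to 141704620, reverse strand) was the least abundant, with 13, 13 and 14 counts in the normoxia libraries and 57, 50 and 124 counts in the hypoxia libraries. This corresponded to 0.329, 0.349 and 0.452 CPM and to 1.41, 1.37 and 1.36 CPM, with log2FC 1.87 (SE 0.24, adjusted p = 5.22e-04). The noncoding gene SPRY4-IT1 lies within the span of SPRY4 without sharing exon bases, and for none of the 10 genes did another counted gene share exon bases.

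SPRY2 (chromosome 13, 80910111 to 80915250, reverse strand) was at 3.60, 4.49 and 3.49 CPM in normoxia and at 4.37, 4.29 and 4.51 CPM in hypoxia. The groups overlapped, since normoxia replicate 2 was above 2 of the hypoxia libraries. The log2FC was 0.19, with a 95% confidence interval from -0.19 to 0.56 (adjusted p = 0.345 by edgeR). A change as large as those of SPRY1 and SPRY4 lies outside this interval. The value was 0.29 without normoxia replicate 2, 0.12 without normoxia replicate 3 and 0.34 with upper-quartile scaling, with no call in any of these fits.

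Both Spred genes rose. SPRED1 (chromosome 15, 38545052 to 38649450, forward strand, 7 exon blocks) was at 11.8, 10.5 and 8.56 CPM in normoxia and at 24.0, 23.0 and 26.0 CPM in hypoxia. The groups did not overlap, and the log2FC was 1.24 (SE 0.13, adjusted p = 2.40e-04). SPRED2 (chromosome 2, 65537985 to 65659656, reverse strand) was at 29.3, 31.1 and 21.7 CPM in normoxia and at 35.9, 36.6 and 41.6 CPM in hypoxia, with log2FC 0.47 (SE 0.14, adjusted p = 0.0203). Replicate 3 was the lowest normoxia library and the highest hypoxia library. Without hypoxia replicate 3 or both libraries of replicate 1, SPRED2 no longer passed the threshold (log2FC 0.40 and 0.57, adjusted p = 0.0515 and 0.0719). Without both libraries of replicate 3 its log2FC was 0.27 (adjusted p = 0.00586).

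**Figure D2:**
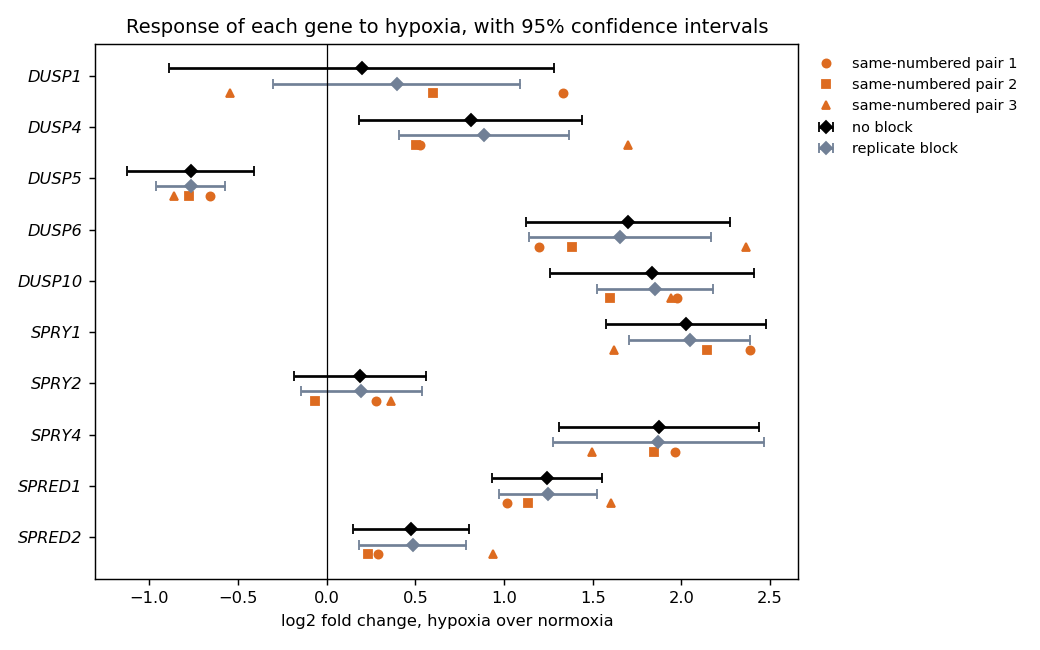
Log2FC (x axis, hypoxia over normoxia) of each gene (y axis) from edgeR's quasi-likelihood fit without (black) and with (grey) the replicate number as a block, with 95% confidence intervals. Orange marks give the difference in log2 CPM within each same-numbered pair of libraries. In 8 of the 10 genes all 3 pairs have the same sign, the exceptions being DUSP1 and SPRY2, a share close to the 82.9% of all tested genes.

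To compare levels between genes, CPM were divided by the exon length in the files and are given as CPM per kilobase (kb). In normoxia DUSP5 was the most abundant of the 10 genes, at 8.48 ± 1.48 CPM per kb (SD, n = 3), and SPRY4 the least, at 0.0681 ± 0.0119. In order of mean level, these were followed from the top by SPRED2 (5.89), DUSP1 (4.70), DUSP4 (3.98), SPRY1 (1.76), SPRED1 (1.42), SPRY2 (1.12), DUSP10 (0.879) and DUSP6 (0.765). Except at both ends of this order, the ranges of neighboring genes overlapped. In hypoxia SPRED2 (8.18 ± 0.673), SPRY1 (7.12 ± 0.284) and DUSP4 (7.0 ± 0.0354) were the most abundant, and DUSP5, at 4.97 ± 0.653, had rank 5. SPRY1 thus moved from rank 5 to rank 2, and the ranges of SPRY1 and DUSP4 overlapped in hypoxia. SPRY4 remained last in hypoxia at 0.249 ± 0.00493 CPM per kb. None of these genes was abundant. In hypoxia the highest of them, SPRED2, was above 54.6% of tested genes, and SPRY4 was above 6.13%.

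The make-up of each family is given as shares of its summed level. The summed level of the 5 DUSP genes was 16.7, 17.3 and 22.5 CPM per kb in normoxia and 23.1, 21.3 and 24.5 CPM per kb in hypoxia, so that the ranges overlapped. Within that sum, the share of DUSP5 was 45.1% ± 2.49 in normoxia and 21.6% ± 1.33 in hypoxia (SD, n = 3). The shares of DUSP6 and DUSP10 were 4.20% ± 1.24 and 4.88% ± 1.82 in normoxia and 10.7% ± 2.70 and 13.9% ± 3.54 in hypoxia. DUSP1 made up 12.2, 18.3 and 39.7% of the sum in the normoxia libraries and 22.3, 22.5 and 24.9% in the hypoxia libraries. The summed level of the 3 Sprouty genes was 2.94 ± 0.485 CPM per kb in normoxia and 8.64 ± 0.311 in hypoxia, and the share of SPRY1 in it was 59.0% ± 8.25 and 82.4% ± 0.367. For the Spred genes the sums were 7.31 ± 1.27 and 11.5 ± 0.872 CPM per kb, with SPRED2 at 80.5% ± 1.53 and 70.9% ± 0.754 of them. These shares are descriptions, and no test was made on them.

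**Figure D3:**
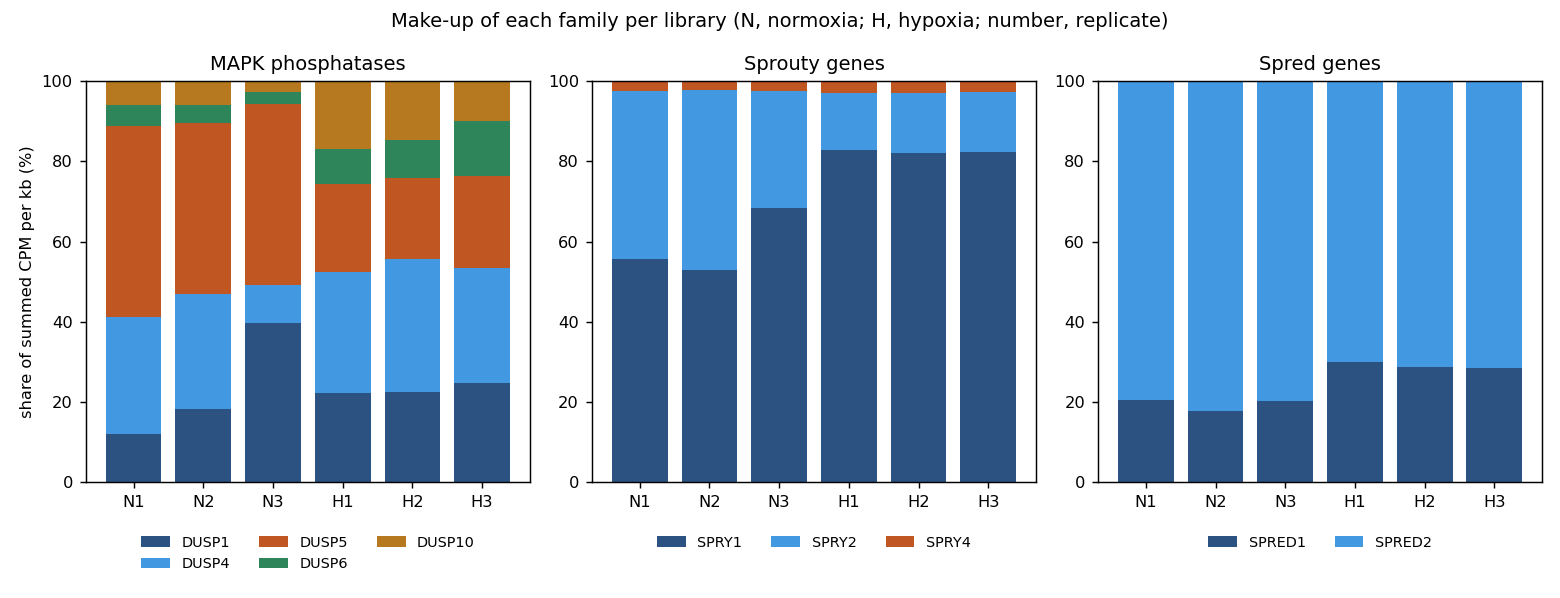
Share of each gene (y axis, percent of the summed CPM per kb of its family) in each library (x axis, N for normoxia, H for hypoxia, with the replicate number). DUSP5 takes 42.6 to 47.6% of the DUSP sum in normoxia and 20.2 to 22.8% in hypoxia, and the share of DUSP1 in normoxia replicate 3 (39.7%) stands apart.

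Promoter letters were examined because 7 of the genes rose together. RefSeq promoter windows (GRCh38.p14, 250 bases before to 50 bases after an annotated start) were held for 8 of the 10 genes, 13 windows in all, and none for DUSP4 and DUSP5. The letters searched on both strands were TGACGTCA (the full cAMP response element, CRE), TGACG (its core, contained in the former), ACGTG (the core of the hypoxia response element bound by HIF) and CCGGAA (a core of ETS factor sites, ETS factors being targets of ERK). Stretches of 30 bases that hold matches are shown for DUSP1, the only gene with the CRE and the ACGTG letters, and for the Sprouty genes, of which SPRY1 and SPRY4 were called and SPRY2 was not. They read 5′ to 3′ on the strand of the gene, with the match in capitals.
DUSP1, CRE, chr5:172771302-172771331, reverse strand: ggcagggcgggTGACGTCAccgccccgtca
DUSP1, ACGTG, chr5:172771286-172771315, reverse strand: tcaccgccccgtcACGTGatcaccattcaa
SPRY1, CCGGAA, chr4:123398307-123398336, forward strand: tgccctccgcagCCGGAAgggggccgcggg
SPRY2, CCGGAA, chr13:80341251-80341280, reverse strand: tccctgcctcctCCGGAAaggcgagggcgc
SPRY4, TGACG, chr5:142324299-142324328, reverse strand: ctcttcggagccgTGACGgactgaattccc

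The matches shown for DUSP1 lie 125 and 107 bases before the annotated start, counted to the first base in capitals. TGACGTCA occurred in 1 of the 13 windows (DUSP1), beside 1.85% of all 35116 windows and 2.63% of the 16338 windows of tested genes. ACGTG also occurred in 1 of 13 (DUSP1), beside 21.4% of all windows and 25.04% of those of tested genes. TGACG occurred in 5 of 13 (1 each for DUSP1, DUSP10, SPRED2, SPRY2 and SPRY4), beside 24.6% and 30.8%, and CCGGAA in 2 of 13 (SPRY1 and SPRY2), beside 17.2% and 25.5%. No enrichment was tested. SPRY1, which rose, and SPRY2, which did not pass the test, thus both held the ETS letters. A match of letters is a description of these windows, not a measured binding site.

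The genes around these inhibitors were counted from lists written with earlier results of these data known. Of 5 other MAPK phosphatases, 3 rose and 1 fell, and DUSP2 did not pass (log2FC -0.42, adjusted p = 0.151). DUSP9, an ERK-selective phosphatase related to DUSP6, rose from 0.222 ± 0.0588 to 1.10 ± 0.0741 CPM, with log2FC 2.29 (adjusted p = 4.65e-04 by edgeR). DUSP16, which acts on JNK and p38, rose by 0.42 (adjusted p = 0.00656), and DUSP8 by 0.62 (adjusted p = 0.00891). DUSP7, the ERK phosphatase closest to DUSP6 and DUSP9, fell by 0.40 (adjusted p = 0.0316), a call lost without normoxia replicate 1 or 3, hypoxia replicate 1 or 2, or both libraries of replicate 1 or 2, and with upper-quartile scaling. The rises numbered 1 without both libraries of replicate 1 or 2.

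Of 12 atypical dual specificity phosphatases, small enzymes without the MAPK-binding domain, 5 rose, 2 fell and 5 did not pass, with a median log2FC of 0.11. The largest rise was that of DUSP15, from 3.63 ± 1.19 to 21.0 ± 2.46 CPM (log2FC 2.53, adjusted p = 1.36e-04), and DUSP19 rose by 1.70 (adjusted p = 4.05e-04). STYX, a pseudophosphatase that holds ERK in the nucleus, fell by 0.36 (adjusted p = 0.0117), and DUSP28 by 0.47 (adjusted p = 0.0406). The falls numbered 1 without any single library except normoxia replicate 3, and 0 without both libraries of replicate 1 or 2 or with upper-quartile scaling. The rises numbered 3 without both libraries of replicate 1.

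Of 14 other brakes on receptors and RAS, 13 were tested, of which 8 rose and 3 fell, with a median log2FC of 0.31. ERRFI1, an inhibitor of the EGF receptor family, rose from 41.5 ± 0.853 to 73.0 ± 6.58 CPM (log2FC 0.81, adjusted p = 2.52e-04). IL17RD, also known as SEF, an inhibitor of FGF signaling to ERK, rose from 1.98 ± 0.727 to 10.3 ± 2.43 CPM (log2FC 2.36, adjusted p = 4.82e-04). PEBP1, the RAF kinase inhibitor protein, fell from 316.8 ± 14.3 to 168.7 ± 12.7 CPM (log2FC -0.91, adjusted p = 1.31e-04), and LRIG1, which promotes the breakdown of EGF family receptors, from 429.2 ± 76.5 to 190.0 ± 10.0 CPM (log2FC -1.18, adjusted p = 2.40e-04). NF1, the partner of the Spred proteins, was at 242.9 ± 14.4 and 230.5 ± 9.26 CPM (log2FC -0.075, adjusted p = 0.415). The remaining Spred gene, SPRED3, was among those that rose (log2FC 1.37, adjusted p = 7.40e-04), and SPRY3, with no library over 4 counts, was not tested. NF1 and SPRED3 were chosen for mention after their values were seen. The rises numbered 5 without normoxia replicate 1, and 4 and 5 without both libraries of replicates 1 and 2.

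Genes of the cascade that these proteins inhibit moved in both directions. Of 20 genes of the RAS-ERK cascade, 19 were tested, 4 rose, 7 fell and 8 did not pass, with a median log2FC of -0.088. KSR1, a scaffold for RAF, MEK and ERK, rose from 1.67 ± 0.0799 to 6.36 ± 0.137 CPM (log2FC 1.92, adjusted p = 7.87e-05), and the adaptor GAB1 rose by 0.60 (adjusted p = 6.02e-04). The adaptor SHC1 fell by 0.46 (adjusted p = 0.00281) and MAP2K2, which encodes MEK2, by 0.55 (adjusted p = 0.00608). MAPK3, which encodes the kinase ERK1 and was chosen for mention after its values were seen, fell by 0.42 (adjusted p = 0.0183). The falls numbered 0 without both libraries of replicate 1 and 4 without those of replicate 2, and the rises 7 without those of replicate 3. In the JNK and p38 list, 1 of 13 genes rose (MAPK8, which encodes JNK1, by 0.26, adjusted p = 0.0366) and 4 fell. MAP2K6, a kinase that activates p38, fell by 1.17 (adjusted p = 5.18e-04), and the p38 gene MAPK13 by 0.54 (adjusted p = 9.36e-04). The rise of MAPK8 was lost without normoxia replicate 1 or 3, hypoxia replicate 1 or 2, or both libraries of replicate 1 or 2, and the falls numbered 2 without both libraries of replicate 1.

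Genes known to be switched on by ERK did not move uniformly. Of 13 such genes outside the 10, 5 rose, 1 fell and 7 did not pass, although the median log2FC was 1.08. The factors ETV1, ETV4 and ETV5, which belong to the ETS family, were among those that rose, together with FOS and EPHA2. ETV4 had 6, 7 and 8 counts in normoxia and was at 1.83, 1.26 and 6.28 CPM in hypoxia, highest in replicate 3. Its log2FC was 4.01 (SE 0.72), and its same-numbered pairs gave 3.26, 2.49 and 4.39, so that the size of its rise is poorly determined. ETV1 rose from 1.56 ± 0.289 to 5.11 ± 1.41 CPM (log2FC 1.72, adjusted p = 8.72e-04). ETV5 had 2, 2 and 4 counts in normoxia, near the floor, and 19, 17 and 75 counts in hypoxia (adjusted p = 0.00145), so that its fold is poorly determined. The cyclin gene CCND1 fell from 274.3 ± 20.4 to 200.4 ± 35.6 CPM (log2FC -0.45, adjusted p = 0.0176). In the fit with a replicate block 9 rose and 1 fell, and 9 also rose without normoxia replicate 3 or without both libraries of replicate 3. The fall of CCND1 was lost with upper-quartile scaling, without normoxia replicate 1, without hypoxia replicate 1 or 2, and without both libraries of replicate 1 or 2. Replicate 3 was the highest library for 8 of these 13 genes in normoxia and for 10 in hypoxia, where the corresponding shares of all tested genes were 40.8% and 44.4%.

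**Figure D4:**
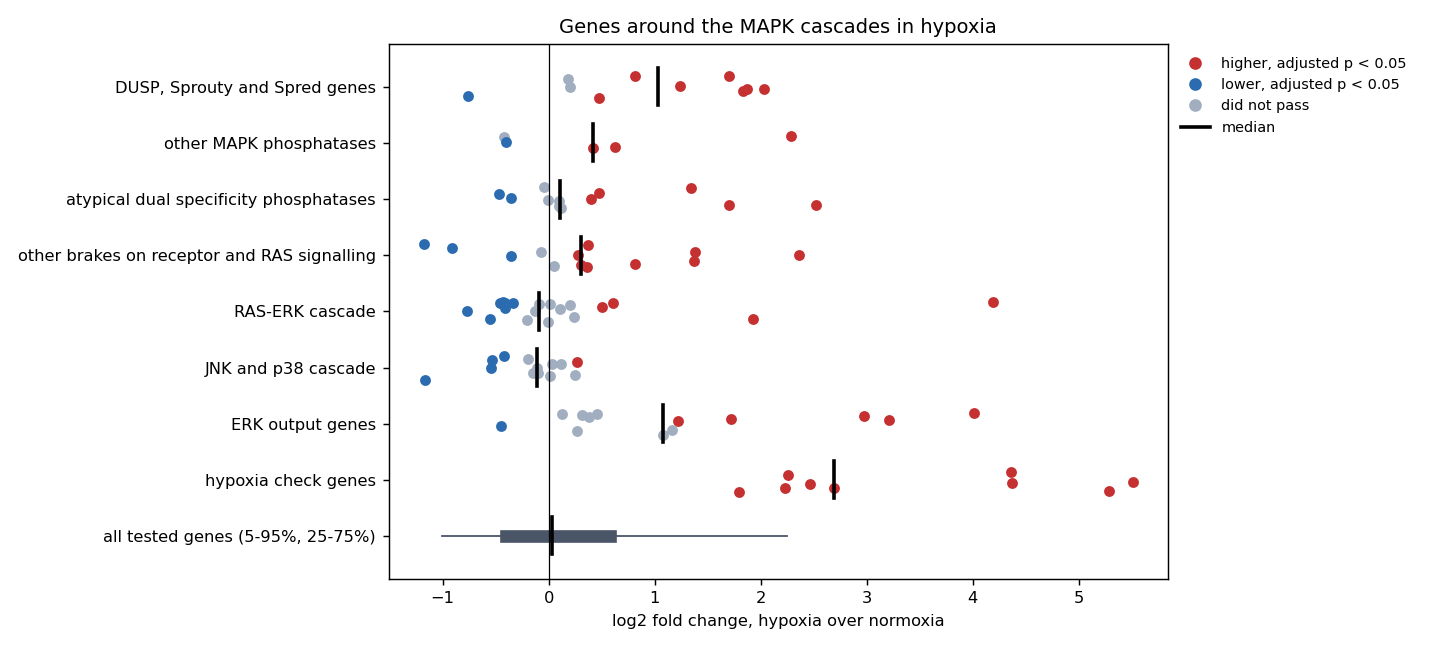
Log2FC (x axis, hypoxia over normoxia) of each tested gene of the 10 inhibitors and of the lists around them (y axis), with red for higher, blue for lower and grey for no call at an adjusted p of 0.05. Black bars are medians, and the bottom line gives the 5th to 95th and 25th to 75th percentiles of all tested genes. The medians of the 10 inhibitors (1.03) and of the ERK output genes (1.08) lie to the right of that of all tested genes (0.028).

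The gene most like DUSP6 over the 6 libraries was EPHA2, an ephrin receptor gene of the ERK output list (Pearson's r of log2 CPM 0.997), out of 12664 genes whose mean count was 100 or more. It was followed by FAM105A, C19orf57, ZNF852 and ITM2C, all at 0.996. The libraries fall into 2 conditions, so any gene with a marked difference between them has a high r, and the order is a description only. EPHA2 was at 6.79, 5.94 and 5.59 CPM in normoxia and at 11.7, 12.2 and 18.7 CPM in hypoxia, so that replicate 3 was its highest hypoxia library, as it was for DUSP6.

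**Figure D5:**
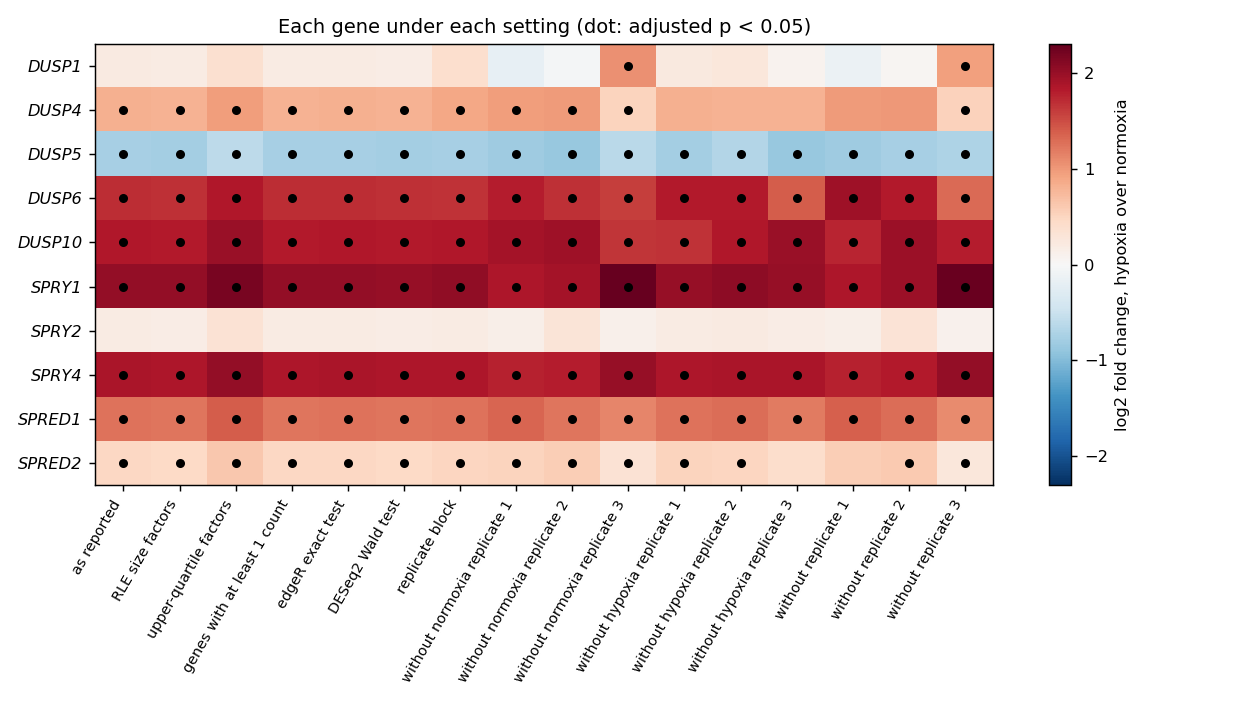
Log2FC (color, hypoxia over normoxia) of each gene (y axis) as reported, under 6 other settings and with libraries left out (x axis). Dots mark an adjusted p under 0.05. DUSP5, DUSP6, DUSP10, SPRY1, SPRY4 and SPRED1 have a dot under every setting, SPRY2 under none, and DUSP1 in the fits without normoxia replicate 3 or without both libraries of replicate 3.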

How the data were processed

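The authors sequenced 3 normoxia and 3 hypoxia stranded mRNA libraries of T47D cells. Per the labels and the study's methods, reads were checked with FastQC 0.11.5, trimmed with Skewer, aligned to hg19 (GRCh37) with STAR 2.5.2a and counted per RefSeq gene with featureCounts 1.5.1. The deposited values are whole-number counts, not normalized, with 1 file per library. Whether counting used strand, and how multiply matching reads were handled, is not given in the sources used here. O2 levels and times follow the labels.

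Genes were kept with edgeR's filterByExpr (minimum count 10, minimum total count 15), normalized by TMM and fitted over the 6 libraries by edgeR's quasi-likelihood method, condition being the only term (R 4.3.3, edgeR 4.0.16, DESeq2 1.42.0 for an alternative). The study's edgeR exact test is an alternative. Adjusted p-values are Benjamini-Hochberg over 15657 genes at 0.05. Standard errors are the log2-fold change divided by the root of the F statistic. Differences within pairs are of log2 CPM with a prior count of 2. Deviations of same-numbered libraries from the means of their conditions correlated at 0.338, 0.422 and 0.575 across genes. Unlike-numbered replicates 1 and 2 also correlated, at 0.243 and 0.277, while replicate 3 against 1 or 2 gave -0.376 to -0.466. These values thus set replicate 3 apart more than they pair replicates 1 and 2. Deviations within a condition cancel out, so positive values for some pairs come with negative values for others. The spread between replicates (edgeR's common biological coefficient of variation) was 0.141 without and 0.0751 with a replicate block. The study's methods call the samples paired. Here the replicate numbers were taken as pairs only for differences within pairs and for the fit with the replicate block, an alternative. The calls reported come from the fit without it. The tests were tried on simulated data with the same spread parameter for all genes and no difference between replicate numbers. That trial therefore does not cover a library that stands apart, as replicate 3 does here. The 10 genes and the lists were chosen with earlier results of these data known. Named in each pathway list were the 2 genes with the smallest p each way, and others where stated. DUSP2, DUSP8 and the ERK output genes ETV4, FOS and EPHA2, and the cell type markers given by name, were named after their values were seen. Promoter windows are from RefSeq (GRCh38.p14), matched by symbol.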

Additional observations from a re-analysis of the deposited data

How the results depend on the processing

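No result for the 10 genes changed its call or direction with size factors of the DESeq2 type, upper-quartile factors, all genes with at least 1 count, edgeR's exact test, DESeq2 or the replicate block (7 higher and 1 lower in each). With the replicate block the log2FC values of DUSP1, DUSP4, DUSP5 and SPRY2 were 0.39, 0.89, -0.77 and 0.20. At a threshold of 0.01, 5 were higher and 1 lower, beside 41.6% of all tested genes called (3359 higher and 3157 lower). Under upper-quartile factors the median over all tested genes was 0.157 higher on the log2 scale, and 64.5% of calls were rises, beside 51.1% with TMM.

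The replicate block changed no call among the 10 genes. In the 9 fits that left out 1 library or 1 replicate number, 5 to 8 of the 10 genes were higher and 1 lower. The log2FC values ranged from -0.18 to 1.04 for DUSP1, 0.51 to 0.99 for DUSP4, 0.27 to 0.60 for SPRED2 and 0.11 to 0.32 for SPRY2. DUSP1 reversed to -0.18, -0.043 and -0.14. Over all genes, 2648 to 5751 were then higher and 2191 to 5506 lower. Fewer libraries enter these fits, and the cause of single lost calls was not tested.

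Counts in the surrounding lists moved by over 1.5 times as follows. Upper-quartile factors gave 0 lower genes among other MAPK phosphatases, atypical phosphatases and ERK output genes, 7 higher in the RAS-ERK cascade and 2 higher in the JNK and p38 cascade. With all genes of at least 1 count, 1 atypical phosphatase was lower and 0 JNK and p38 genes higher. The replicate block gave 2 higher JNK and p38 genes and 9 higher ERK output genes. At 0.01, 0 were lower among other MAPK phosphatases, atypical phosphatases and ERK output genes, 0 JNK and p38 genes were higher, and 5 other brakes were higher. Leaving libraries out, the higher counts ranged from 1 to 3 for other MAPK phosphatases, 3 to 6 for atypical phosphatases, 4 to 8 for other brakes, 3 to 7 for the RAS-ERK cascade, 0 to 1 for JNK and p38 and 5 to 9 for ERK output genes. The lower counts ranged from 0 to 1, 0 to 2, 2 to 3, 0 to 8, 2 to 5 and 0 to 1, in the same order. In the level order by CPM per kb, DUSP1 and DUSP4 exchanged ranks 3 and 4 in normoxia when medians replaced means. Among the 10 genes SPRY4 had the fewest counts, 13 or 14 in normoxia.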
